A study of Mus musculus with 4 samples.

Results

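*Srf*, the gene of serum response factor, and 9 genes of the contractile apparatus of smooth muscle (*Acta2*, *Actg2*, *Tagln*, *Cnn1*, *Cnn2*, *Myl9*, *Vcl*, *Tpm1* and *Tpm2*) were followed after a cOS-pulse, a short exposure to critical oxidative stress. All probes that the array annotation assigns to these 10 genes were taken, which gave 19 probes in 28 spots, of 39429 probes in 43020 spots. The cells were NIH-3T3:Per2-Luc, an established mouse fibroblast line carrying a luciferase driven by the *Per2* promoter, and RNA of each condition was hybridized to 1 one-color array. 3 arrays held cells given 5 mM H2O2 for 10 min and harvested 4 h, 20 h or 32 h later, and 1 held control cells at 0 mM H2O2, labelled 4 h, which received fresh medium. All 4 arrays shared the cell line and the slide, and the arrays at 20 h and 32 h were compared with the 4 h control. Time in culture, time since the change to fresh medium with serum and the pulse cannot be told apart there. The paper calls fresh medium a comparably weak resetting stimulus. With 1 array per condition there was no replicate check, hence no test or p-value, and precision is limited by the number of arrays.

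Serum response factor binds DNA at a short AT-rich element, the CArG box, and works with either kind of partner. Myocardin-related transcription factors, held in the cytoplasm by monomeric actin and released when actin polymerizes, serve genes of the cytoskeleton and of smooth muscle contraction. Ternary complex factors, phosphorylated by MAP kinases, serve immediate early genes. Cultured fibroblasts with stress fibers transcribe many contractile genes that are otherwise typical of smooth muscle, with smooth muscle actin as the usual mark of the myofibroblast.

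The promoters of *Srf* and of the 4 genes with a probe at least 2-fold lower at 4 h are shown so that the CArG boxes counted in them can be read. RefSeq (GRCm38.p6) held the promoters of 8 of the 10 genes, and *Tagln* and *Actg2* had no entry. Each sequence runs 5′ to 3′ over the 250 bases before the annotated transcript start, and capitals mark CArG boxes and stretches 1 letter away from a CArG box.
Srf promoter, chr17:46556163-46556412, minus strand: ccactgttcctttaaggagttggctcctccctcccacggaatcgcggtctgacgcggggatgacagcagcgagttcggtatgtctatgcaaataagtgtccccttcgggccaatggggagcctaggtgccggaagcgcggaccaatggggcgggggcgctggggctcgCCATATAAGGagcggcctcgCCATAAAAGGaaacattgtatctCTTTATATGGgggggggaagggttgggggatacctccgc
Acta2 promoter, chr19:34255374-34255623, minus strand: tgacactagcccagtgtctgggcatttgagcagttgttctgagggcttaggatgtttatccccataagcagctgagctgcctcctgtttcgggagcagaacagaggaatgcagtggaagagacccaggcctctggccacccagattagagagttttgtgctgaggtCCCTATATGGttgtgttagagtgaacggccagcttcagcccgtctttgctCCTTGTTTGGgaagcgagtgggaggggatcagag
Cnn2 promoter, chr10:79988350-79988599, plus strand: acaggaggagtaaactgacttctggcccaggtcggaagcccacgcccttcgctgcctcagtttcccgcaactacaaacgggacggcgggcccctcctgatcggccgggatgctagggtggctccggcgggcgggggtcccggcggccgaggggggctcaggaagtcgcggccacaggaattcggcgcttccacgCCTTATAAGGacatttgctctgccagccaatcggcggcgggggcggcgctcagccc
Myl9 promoter, chr2:156775214-156775463, plus strand: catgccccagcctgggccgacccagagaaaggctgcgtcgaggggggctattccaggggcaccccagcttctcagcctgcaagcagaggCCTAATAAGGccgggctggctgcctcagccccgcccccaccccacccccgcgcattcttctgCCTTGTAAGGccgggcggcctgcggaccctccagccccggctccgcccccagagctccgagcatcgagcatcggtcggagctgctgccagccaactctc
Vcl promoter, chr14:20929148-20929397, plus strand: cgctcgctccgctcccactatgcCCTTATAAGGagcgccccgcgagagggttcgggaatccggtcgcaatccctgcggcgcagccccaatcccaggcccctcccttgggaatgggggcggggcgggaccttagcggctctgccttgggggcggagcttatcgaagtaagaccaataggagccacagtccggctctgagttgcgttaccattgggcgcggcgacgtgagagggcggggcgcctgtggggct

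The *Srf* promoter held 2 CArG boxes, the first beginning 82 and the second 62 bases before the start, with a stretch 1 letter away at 39. *Cnn2*, *Myl9* and *Vcl* each held 1 CArG box, beginning 56, 161 and 227 bases before the start, respectively. The window of *Acta2* held 2 stretches 1 letter away, at 84 and 34, as did that of *Tpm1*, at 221 and 80. The windows of *Cnn1* and *Tpm2* held neither, which says only that these letters are not in these 250 bases. Thus 4 of 8 windows held a CArG box, against 1.48% of the 32536 promoter windows of that length in the table, and 6 of 8 held a box or a stretch 1 letter away, against 18.6%. The letters CATTCC on either strand, the core of the MCAT element that TEAD factors bind, were found in *Acta2*, *Vcl* and *Tpm1*, against 12.6% of windows. The genes were listed for their known tie to serum response factor, so these shares are a description, and a match of letters is neither a bound site nor a cause of any value given here.

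**Figure D1:**
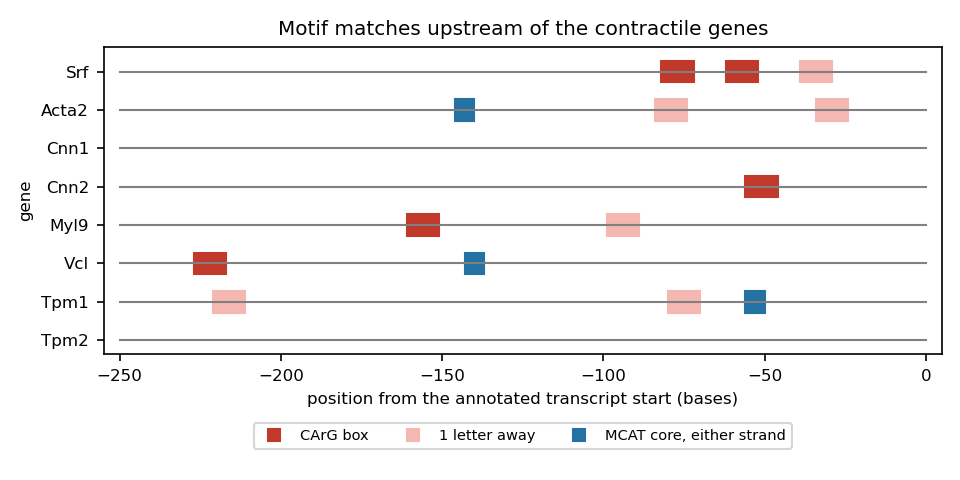
Matches in the 250 bases before the transcript start of the 8 genes with a RefSeq promoter, with the position in bases from the start on the x axis and 1 line per gene. Dark red blocks are CArG boxes, pale red blocks are stretches 1 letter away and blue blocks are the MCAT core. *Srf* carries 2 CArG boxes within 82 bases of its start, while *Cnn1* and *Tpm2* carry no match.

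Levels are given as scaled log2 signals, that is, the mean log2 intensity of the spots of a probe minus the 75th percentile of all probes on the array. They are not compared between probes, except that the brightest probe per gene is picked by them and the marker sums below add them unlogged. A log2 ratio is the difference of these levels between 2 arrays. Its error is that of the scanner software for the spot and does not cover differences between cultures. A probe counted as detected when its signal was well above background, as it was for 52.7% to 59.1% of probes per array. Where only 1 of 2 arrays detected a probe, its change is given as a bound, taken over the lowest detected signal of the other array. If the undetected signal lay above that, it was used itself, and the change is no bound. A bound does not allow for the spot error or for another background correction. Probe positions follow the array annotation (mm9), and the exon or untranslated region that each probe lies in was not analysed here.

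At 4 h after cOS-pulse, 5 of the 19 probes lay at least 2-fold below the control, those of *Acta2*, *Cnn2* (both probes), *Myl9* and *Vcl* (1 of 2 probes), against 8.13% of all probes detected on either array. 1 probe, of *Tpm1*, was at least 2-fold higher, against 11.1% of all probes. At 20 h, 6 of the 18 detected probes were at least 2-fold lower (*Acta2*, *Myl9*, both probes of *Vcl* and 2 of *Tpm1*), against 3.3% of all probes, and 0 were at least 2-fold higher, against 1.35%. At 32 h, 3 of 18 were at least 2-fold lower (*Acta2*, *Myl9* and *Vcl*), against 2.59%, and 0 higher, against 2.06%. Of the 19 probes, 6 are of *Tpm1*, 2 of them overlapping, so counts and medians over probes weigh this gene more than those with 1 probe. The median log2 ratio of the contractile and *Srf* probes measured on both arrays was -0.49 at 4 h (18 probes), -0.57 at 20 h (17 probes) and -0.53 at 32 h (16 probes). Over all measured probes the median was 0.17, -0.0035 and -0.0065, respectively, so the listed genes lay 0.66, 0.57 and 0.52 below it on the log2 scale. The genes were chosen with earlier results of these data known, so these gaps and the counts above describe the list and test nothing. Scaling mattered most at 4 h, where 4 other scalings by 1 constant per array moved every ratio by -0.12 to -0.40 and quantile normalization moved the typical probe by -0.11 (median over probes that all 4 arrays detected), though single probes by other amounts, and the median of all measured probes lay below 0 under 4 of these 5. At 20 h and 32 h, every measured probe of the listed genes lay below the control, 17 of 17 and 16 of 16, but under spike-in scaling these were 15 and 14, without scaling 13 and 13, and with the median 16 and 16. In bulk RNA, fewer cells that express a gene and less RNA per cell cannot be told apart.

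**Figure D2:**
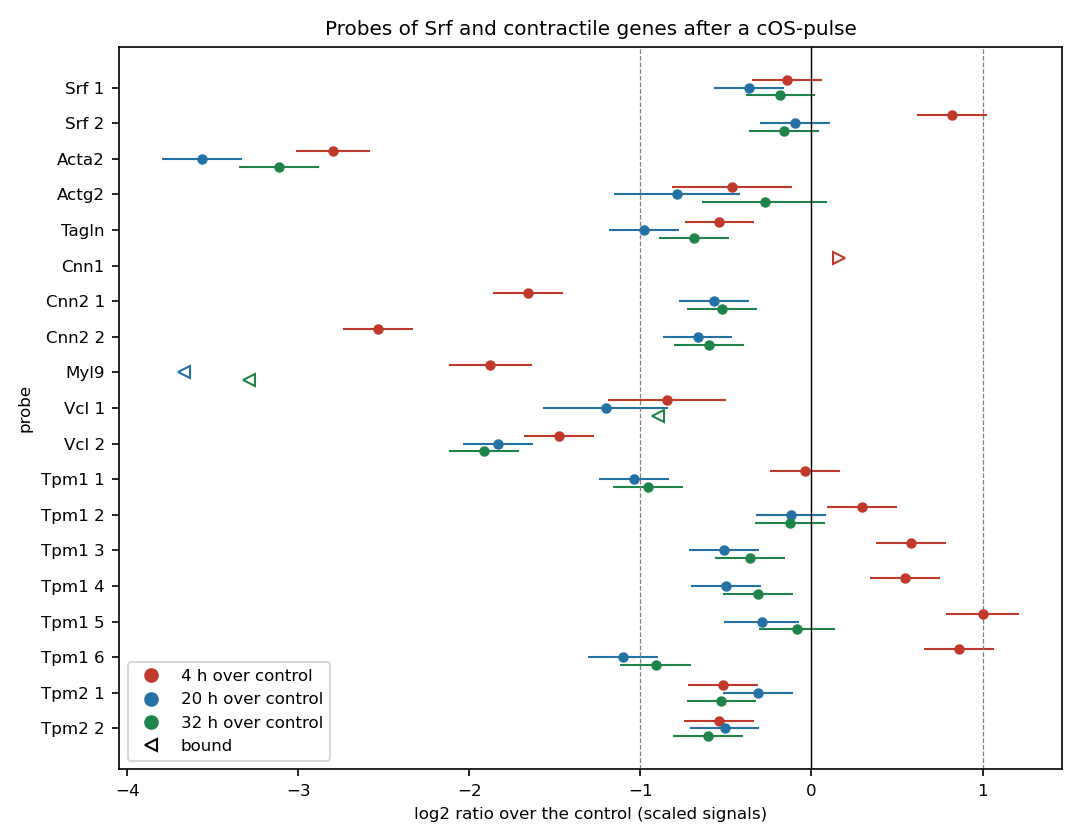
Log2 ratio over the control for each of the 19 probes, with 4 h in red, 20 h in blue and 32 h in green. Points are measured ratios, bars are the error of the spot and the dashed lines mark 2-fold. Open triangles are bounds, except that of the dimmer *Vcl* probe at 32 h, which is the difference to its undetected signal. Numbers after a gene name count its probes by genome position. *Acta2*, *Myl9* and 1 *Vcl* probe lie left of the dashed line at all 3 times, *Cnn2* at 4 h alone, and *Tpm1* lies mostly right of 0 at 4 h and left of it later.

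**Figure D3:**
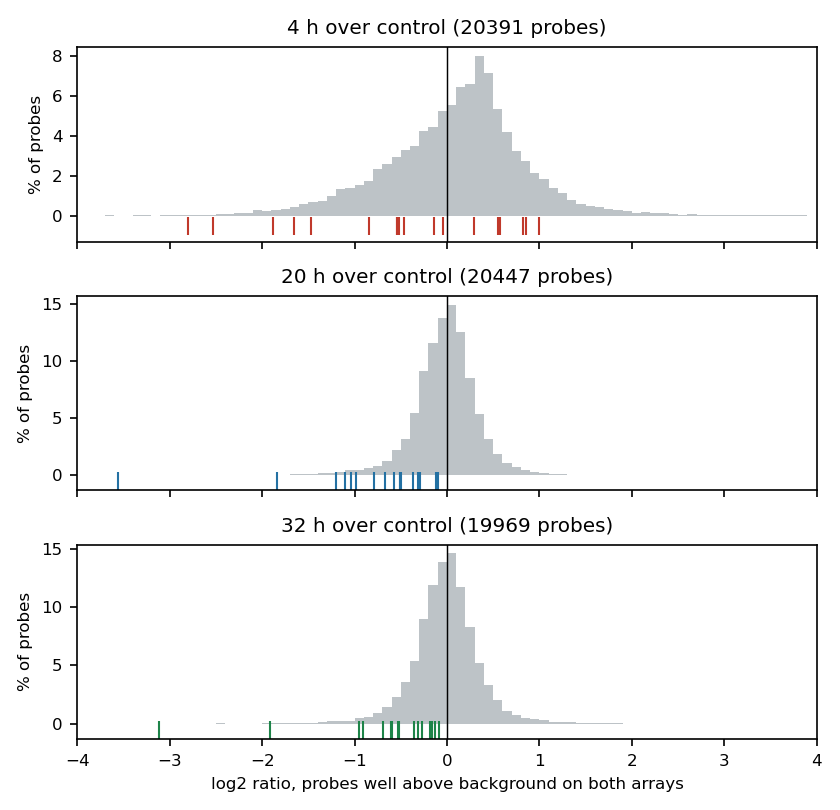
Distribution of the log2 ratio over the control for every probe detected on both arrays, in bins of 0.1 from -4 to 4, with the percentage of probes on the y axis. Ticks under each histogram are the measured probes of *Srf* and the contractile genes. At 20 h and 32 h all ticks lie left of 0, while at 4 h 12 of 18 do.

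*Srf* itself was detected on all 4 arrays by both of its probes (chromosome 17). The probe at 46685306 to 46685365 had a scaled log2 signal of 0.26 in the control, 1.08 at 4 h, 0.16 at 20 h and 0.10 at 32 h. Its 4 h array alone stood apart, with a log2 ratio of 0.82 ± 0.20 over the control (1.77-fold), while the later ratios of -0.09 and -0.16 were within the spot error and turned positive at 20 h under 3 other scalings and at 32 h without scaling. The other probe, listed at 46683788 to 46683795 and therefore with a mapped span of only 8 bases, read 0.78 in the control, 0.64 at 4 h, 0.41 at 20 h and 0.60 at 32 h. The ratios were -0.14, -0.37 and -0.18, of which only the one at 20 h exceeded its error of 0.20. Under other scalings the 4 h ratio ran to -0.54 and exceeded its error under 4 of 5, and the 20 h ratio was within its error with the spike-in controls (-0.17) and without scaling (-0.034). The *Srf* probes thus differed by 0.96 in their 4 h ratio, a gap reached by 10.4% of the 2969 genes with exactly 2 measured probes. At 32 h they differed by 0.021. Which of these probes follows the *Srf* transcript at 4 h was not tested.

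*Acta2*, which encodes smooth muscle alpha-actin, had the lowest measured ratio over the control among the probes of the listed genes at all 3 times, although with normexp a *Cnn2* probe was lower at 4 h (-2.41 against -2.24), and the bounds of *Myl9* at 20 h and 32 h (-3.67 and -3.29) lay lower. Its probe (chromosome 19, 34316060 to 34316119) was printed in 10 spots, the only one of the 19 to be repeated. The mean scaled log2 signal was 0.04 in the control, -2.76 at 4 h, -3.52 at 20 h and -3.07 at 32 h. The control spots ran from -0.029 to 0.16, the 4 h spots from -2.92 to -2.64, the 9 kept spots at 20 h from -3.73 to -3.38 and the 9 kept at 32 h from -3.20 to -2.93. No spot of a cOS-pulsed array reached the control range, including the 1 outlier spot left out at each of 20 h and 32 h, which read -2.80 and -2.39. The mean signal was 6.95-fold lower than the control at 4 h (log2 ratio -2.80 ± 0.22), 11.8-fold lower at 20 h (-3.56 ± 0.23) and 8.65-fold lower at 32 h (-3.11 ± 0.24). Over single spots the ratio had an SD of 0.099 at 4 h (10 spots), 0.10 at 20 h (9 spots) and 0.062 at 32 h (9 spots), which measures repeat spots of 1 RNA sample and not cultures. At 20 h only 1 of 20447 measured probes had a lower ratio than *Acta2*, at 32 h 4 of 19969 did and at 4 h 21 of 20391. Between 20 h and 32 h the level was 0.45 ± 0.26 higher. Over the alternatives tried, the ratio ran from -3.20 to -2.24 at 4 h, from -3.58 to -2.91 at 20 h and from -3.12 to -2.53 at 32 h, with normexp giving the smallest change each time.

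**Figure D4:**
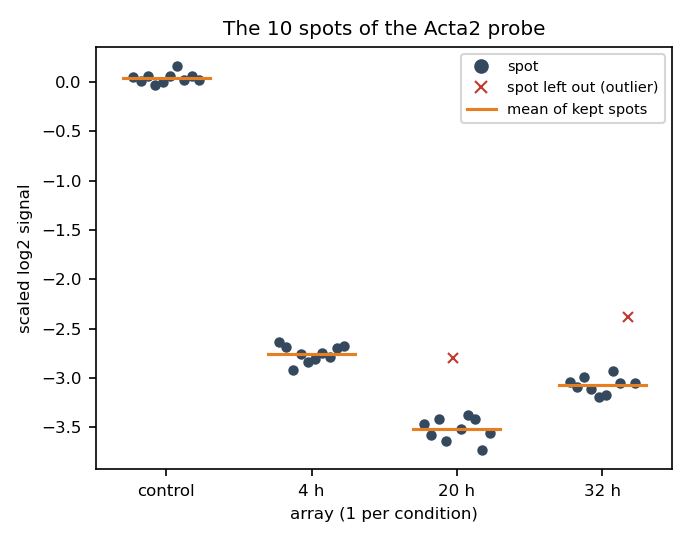
Scaled log2 signal of each of the 10 spots of the *Acta2* probe on the 4 arrays, with dots for kept spots, crosses for spots that the scanner software called outliers and lines for the mean of the kept spots. The control spots sit between -0.029 and 0.16, and all spots of the cOS-pulsed arrays lie at -2.39 or below.

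*Actg2*, the smooth muscle gamma-actin gene, was dim on all 4 arrays (chromosome 6, 83462904 to 83462963). Its level was -3.89 in the control, -4.36 at 4 h, -4.68 at 20 h and -4.16 at 32 h, close to the lowest detected signals of the arrays, which lay between -5.11 and -4.73. The ratios of -0.47 ± 0.35 at 4 h and -0.79 ± 0.37 at 20 h exceeded the spot error and that of -0.27 ± 0.37 at 32 h did not. The 20 h and 4 h arrays differed by less than the spot error (-0.32 ± 0.39), and under 4 of the 5 other scalings the 4 h ratio was the lower one. Actin genes are near-identical in coding sequence, and cross-hybridization between them was not tested.

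*Tagln* encodes transgelin (SM22-alpha), an actin-binding protein used as an early mark of smooth muscle differentiation. Its probe (chromosome 9, 45738097 to 45738156) read 2.50 in the control, 1.96 at 4 h, 1.52 at 20 h and 1.81 at 32 h. All 3 cOS-pulsed arrays lay below the control by more than the spot error of 0.20, with log2 ratios of -0.54, -0.98 and -0.69. The ratio at 20 h, 1.97-fold lower, fell just short of 2-fold and lay at the percentile of 2.14 among all measured probes.

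The calponins, which bind actin and inhibit the ATPase of myosin, were read by 3 probes. *Cnn1*, the isoform typical of differentiated smooth muscle, was detected at 4 h only, at -4.60 (chromosome 9, 21913058 to 21913117). In the control and at 20 h and 32 h it read -6.85, -6.80 and -6.80, near the median of the negative control spots, which lay between -7.21 and -6.73. The difference at 4 h is therefore a bound, at least 1.12-fold higher than the control (log2 0.16). Scaled by the 75th percentile of probes detected on all arrays, that bound was 0.036. With median, quantile, spike-in or no scaling the 4 h signal no longer exceeded the lowest detected signal of the control, so no bound was left.

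*Cnn2*, the calponin found in many non-muscle cells, was low at 4 h and nearer to the control later. The probe at 79457785 to 79457844 (chromosome 10) read 1.72 in the control, -0.81 at 4 h, 1.06 at 20 h and 1.13 at 32 h. The probe at 79457370 to 79457429 read 0.57, -1.09, -0.0042 and 0.043 on the same arrays. Both were lowest at 4 h, with log2 ratios of -2.53 ± 0.20 (5.79-fold lower) and -1.66 ± 0.20 (3.16-fold lower). From 4 h to 20 h they were 3.65-fold and 2.12-fold higher, and they were the only 2 of the 19 probes at least 2-fold higher in that comparison, against 9.05% of all probes. At 20 h the ratios over the control were -0.67 and -0.57 and at 32 h -0.60 and -0.52, so both remained below the control by more than the spot error. The 2 *Cnn2* probes differed by 0.88 in their 4 h ratio and by under 0.1 at the later times.

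*Myl9*, which encodes the regulatory light chain of smooth muscle and non-muscle myosin, was detected in the control and at 4 h only (chromosome 2, 156607301 to 156607360). Its level was -1.44 in the control, -3.32 at 4 h, -5.35 at 20 h and -5.17 at 32 h, the last 2 not well above background. At 4 h it was 3.67-fold lower than in the control (log2 ratio -1.88 ± 0.24). At 20 h it was at least 12.7-fold lower and at 32 h at least 9.79-fold lower, each taken over the lowest detected signal of the later array. These minima hold for this background correction only, and their spot errors on the log2 scale were 0.50 and 0.60. With normexp the log2 ratios were smaller, -1.26 at 4 h and bounds of -2.21 at 20 h and -1.86 at 32 h. The change from 4 h to 20 h was likewise a bound, at least 3.46-fold lower.

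*Vcl*, the gene of vinculin, which links integrin adhesions and cadherin junctions to actin, was low on every cOS-pulsed array. The probe at 21852105 to 21852164 (chromosome 14) read 0.99 in the control, -0.48 at 4 h, -0.84 at 20 h and -0.92 at 32 h, with log2 ratios of -1.47 ± 0.20, -1.83 ± 0.21 and -1.92 ± 0.21 (2.78-fold, 3.56-fold and 3.77-fold lower). The dimmer probe, listed over 462 bases from 21848574 to 21849035, read -3.34, -4.19, -4.54 and -4.24, the last not well above background. Its ratio was -0.85 ± 0.34 at 4 h and -1.20 ± 0.36 at 20 h. At 32 h the undetected signal of this probe was 1.86-fold lower (-0.90 ± 0.40). That value is no bound, and it ran to -0.52 over the alternatives. With normexp background correction its 4 h ratio was -0.22, within the spot error. Both probes were lower on all 3 cOS-pulsed arrays, by 0.63 less at 4 h and 0.63 less at 20 h in the dimmer one.

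The tropomyosins, coiled-coil proteins that lie along actin filaments and differ between isoforms by alternative exons, had probes of both *Tpm1* and *Tpm2*. *Tpm2* was modestly low throughout (chromosome 4). Its probe at 43531276 to 43531335 read 2.17 in the control, 1.65 at 4 h, 1.86 at 20 h and 1.64 at 32 h, and the one at 43532262 to 43532321 read 2.30, 1.76, 1.79 and 1.69. The ratios over the control were -0.52 and -0.54 at 4 h, -0.31 and -0.51 at 20 h and -0.53 and -0.60 at 32 h, all beyond the spot error of 0.20, and the first probe turned to 0.021 at 20 h without scaling.

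*Tpm1* had 6 probes along chromosome 9, where the gene runs on the minus strand, and 2 of them share 46 bases. Of its probes, the most 5′ (66880274 to 66880333) read -0.11 in the control, 0.75 at 4 h, -1.21 at 20 h and -1.02 at 32 h. The most 3′ (66871166 to 66871225) read 2.90, 2.86, 1.86 and 1.94. The former was high at 4 h and low later. The latter was low later and within the spot error at 4 h, where it read -0.40, -0.44, -0.32 and -0.23 with median, spike-in, no and quantile scaling, all beyond that error. From the 3′ to the 5′ end, the 4 h ratios were -0.04, 0.30, 0.58, 0.55, 1.001 and 0.86, each with an error of 0.20 to 0.21. The probe with 1.001 (66876655 to 66876714) was the one counted as 2-fold higher, by a fold of 2.001, and it fell under 2-fold with each of the 5 other scalings. A scaling by 1 constant per array leaves the differences between the probes as they are. At 20 h the ratios in the same order were -1.04, -0.12, -0.51, -0.50, -0.29 and -1.10, and at 32 h -0.96, -0.12, -0.36, -0.31, -0.09 and -0.91. The probes at both ends were thus the lowest at both late times, and those at 66872131 and 66876655 were the nearest to the control and changed sign under spike-in scaling or without scaling. The 4 h ratio of the probe at 66872131 also turned negative, to -0.064 under median scaling and -0.10 under spike-in scaling. The array annotation lists 4 RefSeq transcripts for the most 3′ probe, 2 for the next, 3 for each of the pair that overlaps, 0 for the probe at 66876655 and 3 for the most 5′. Whether the probes differ by isoform was not tested. From 4 h to 20 h, 4 *Tpm1* probes and *Myl9* made up the 5 probes at least 2-fold lower, against 14.9% of all probes.

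**Figure D5:**
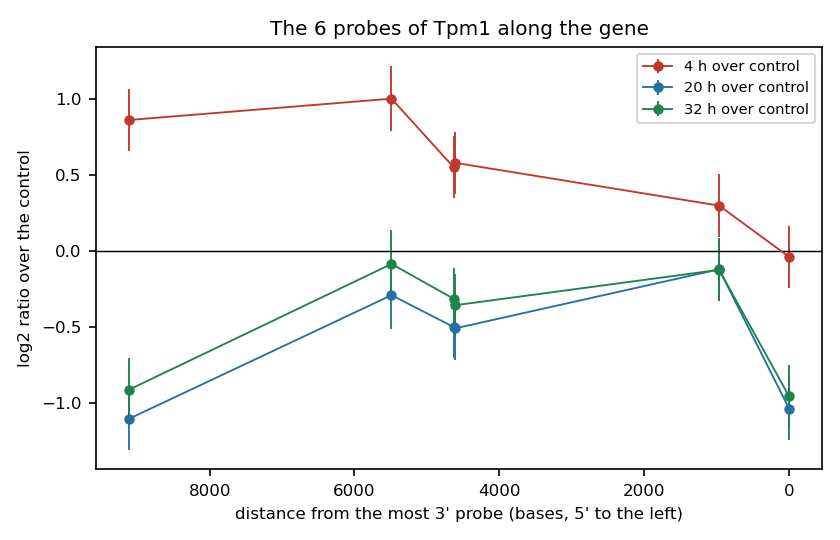
Log2 ratio over the control of the 6 *Tpm1* probes against their distance in bases from the most 3′ probe, 5′ to the left, with bars for the error of the spot. The 4 h ratios run from -0.04 at the 3′ end to 1.001 and 0.86 toward the 5′ end, while those at 20 h and 32 h lie below 0, lowest at both ends.

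Between 20 h and 32 h the contractile genes were close to each other. None of the 17 probes detected on either array differed 2-fold, 0 higher (1.88% of all probes) and 0 lower (0.88%). Of 16 measured ratios, 12 were within the spot error, 3 were above it (*Acta2*, *Actg2* and *Tagln*, with 0.45, 0.51 and 0.29) and 1 was below it, a *Tpm2* probe with -0.22. The median was 0.12, against -0.0086 for all measured probes.

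Genes around the *Srf* pathway were counted by their brightest probe, over all genes of a list on the array, detected or not. The shares of all probes given above cover detected probes only, so these counts and shares differ in base. At 4 h, 8.13% of detected probes were at least 2-fold lower and 11.1% higher. At 20 h these shares were 3.3% and 1.35%, and at 32 h 2.59% and 2.06%. Among 9 cofactors of serum response factor on the array, 2 were at least 2-fold lower at 4 h, the ternary complex factor *Elk3* (-1.50 ± 0.20) and the LIM protein *Fhl2* (-1.06 ± 0.20), and 0 were higher. *Mkl1*, which encodes a myocardin-related transcription factor, had -0.64 ± 0.20, while the ternary complex factors *Elk4* and *Elk1* had 0.41 and 0.32. *Myocd*, the gene of myocardin itself, was not detected on any array. The median over the 6 measured cofactors was -0.64 at 4 h, and it was -0.21 at 20 h and -0.13 at 32 h over 7, with 1 lower at 20 h, *Fhl2* (-1.08), and 0 at 32 h.

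Of 13 immediate early genes read with ternary complex factors, 7 were at least 2-fold higher at 4 h and 0 lower, with a median of 1.39 over 11 measured genes. The highest measured ratios were those of *Fosb* (2.29 ± 0.23), which encodes an AP-1 subunit, *Arc* (2.24 ± 0.31) and *Ier3* (1.75 ± 0.20), whereas *Egr2* (-0.62) and *Cyr61* (-0.25), a matricellular gene, were lower. At 20 h and 32 h their median was 0.093 and 0.18 over 10 genes, with 0 higher and 3 lower at each time. Those 3, chosen after their values were seen, were *Egr1* (-2.03 and -2.15), *Egr2* (-2.34 and -2.08) and *Cyr61* (-2.18 and -2.05).

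The 26 cytoskeletal genes listed as targets of myocardin-related factors had medians of -0.13, -0.20 and -0.36 over 23 measured genes at 4 h, 20 h and 32 h. At 4 h, 2 of the 26 were at least 2-fold lower, a share near the 8.13% of all detected probes. They were *Lima1* (-1.62 ± 0.20), which encodes an actin-bundling LIM protein, and *Tgfb1i1* (-1.32 ± 0.20), the gene of the focal adhesion protein Hic-5. *Pdlim7*, *Wdr1* and *Tpm3* read 0.83, 0.41 and 0.41. *Vil1*, the gene of the actin-severing protein villin, was detected at 4 h only and was at least 11.8-fold higher. At 32 h, 1 gene was at least 2-fold lower, *Actg1*, the non-muscle gamma-actin gene (-1.11).

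Of 18 other smooth muscle genes, 12 were detected on at least 1 array, and the defining smooth muscle markers *Myh11*, *Lmod1* and *Des* were detected on none, whereas *Smtn* was detected on all 4. At 4 h, *Myh10* (-1.20 ± 0.21), *Nexn* (at least 5.34-fold lower) and *Synpo2* (at least 2.44-fold lower) were past 2-fold, and 0 genes were at least 2-fold higher. *Itga8* had -0.75, *Mylk*, the myosin light chain kinase gene, 0.78, *Ldb3* 0.44 and *Aoc3* 0.29. At 20 h, 3 were lower, *Csrp2* (-1.49), *Itga8* (-1.04) and *Synpo2* by a bound, and at 32 h 2, *Csrp2* (-1.97) and *Synpo2*. The medians were -0.21, -0.27 and -0.38.

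The labelled cell type was checked against its markers. Of 13 fibroblast markers, 12 were detected on all 4 arrays and *Fap* on none. Their median ratio over the control was -0.44 at 4 h, -0.37 at 20 h and -0.24 at 32 h, with the collagen, receptor and matrix genes *Col1a1* (-0.71), *Pdgfra* (-1.55) and *Pdgfrb* (-1.35) lowest at 4 h and *Lum* (0.42), *Dcn* (0.30) and *S100a4* (0.052) highest. At least 2-fold lower were 2 markers at 4 h, 3 at 20 h (*Col1a1* -1.06, *Col3a1* -1.02 and *Thy1* -1.39) and 0 at 32 h, and 0 were higher. Of all detected probes, 8.13%, 3.3% and 2.59% were lower at these times. The marker median at 4 h was close to the -0.49 of the contractile and *Srf* probes, so a lower median was not particular to those. The summed unlogged scaled level of the fibroblast markers was 1130 in the control, 1143 at 4 h, 980.1 at 20 h and 1081 at 32 h. The bright probes of *Dcn* and *S100a4* made up most of it on every array, so the sum says little of the other markers. Of 11 striated muscle genes, 0 were detected on all arrays and 5 on at least 1. By bounds, 2 were at least 2-fold higher at 4 h, *Tnnt2* (at least 4.95-fold) and *Myh3* (at least 4.62-fold). At 20 h 1 was, *Tnni3* (at least 2.51-fold), and 0 were lower at any time. Of 6 leukocyte markers on the array, 4 were detected on all 4 arrays, *Cd68*, *Csf1r*, *Cd14* and *Itgam*. Of 6 endothelial markers, 4 were detected on at least 1 array, and 2 of these, *Pecam1* and *Kdr*, on all 4. Of 6 epithelial markers, 1 was detected, *Krt8*, on all 4. The markers not detected on any array included *Epcam*, *Cdh1*, *Ptprc*, *Emr1*, *Tek* and *Tie1*. Among markers of other cell types, *Cd68* (2.08), *Cdh5* (1.87) and *Krt8* (1.17) were at least 2-fold higher at 4 h by measured ratios. *Pecam1* (0.71), *Itgam* (0.57), *Kdr* (0.36) and *Csf1r* (0.28) were not. The summed level of 6 leukocyte markers was 23.6 in the control, 35.3 at 4 h, 14.3 at 20 h and 16.1 at 32 h, and *Itgam* made up most of it on every array. That of 6 endothelial markers was 3.24, 4.39, 4.24 and 4.15, mostly *Kdr*, and that of 6 epithelial markers 0.59, 1.28, 0.76 and 0.72, mostly *Krt8*. The part of these markers in the values of the contractile genes was not tested.

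The probes whose 3 ratios over the control lay nearest to those of *Acta2*, by Euclidean distance over 15653 named probes detected on all 4 arrays, were of *Wisp2* (distance 0.44), *Bnc1* (1.17), *Murc* (1.48), *Ctgf* (1.55) and *Pcdh19* (1.67). *Wisp2* had -2.54, -3.21 and -3.18 at 4 h, 20 h and 32 h, and *Ctgf*, of the same matricellular family, -4.22, -2.96 and -3.22. The brighter *Srf* probe was nearest to *Timp2* (0.019), *Kpnb1* (0.035), *Tanc1* (0.049), *Rgp1* (0.054) and *Arhgap31* (0.059). These distances rest on 3 ratios that share the single control, and they are a description.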

How the data were processed

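RNA of NIH-3T3:Per2-Luc was measured on 4 one-color arrays, 1 per condition, grouped by the dose and time in the labels. The authors deposited spot intensities from Agilent Feature Extraction 10.7.3.1, background-subtracted and detrended, with spot errors and flags, and a table of signals that equals these intensities divided by 1 constant per array (checked to within 0.00024%). The basis of that constant is not given in the sources used here. From the deposited intensities, log2 values were averaged over the spots of a probe that carried no feature outlier flag (125 to 161 spots per array carried one, and 0 were saturated), and the 75th percentile of all probes was subtracted, which left 39427 of 39429 probes. Detection required the flag for signals well above background on 50% or more of the spots. Ratios between arrays that both detected a probe are called measured. If 1 array did, the dim array entered with its own signal or its lowest detected signal, whichever was higher. The change is a bound in the latter case only. Probes past 2-fold were counted.

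The genes and the 10 gene lists were chosen with earlier results of these data known. Named were all probes of the 10 genes, up to 3 genes per list with the largest rise and the largest fall at 4 h, and the 5 probes nearest to *Srf* and to *Acta2*. Genes named because a count was 5 or fewer, and undetected markers, were chosen after their values were seen. Results that need items withheld for evaluation, 1 of the lists among them, are left out. The methods name SAM (two-class paired), which was not run with 1 array per condition. The steps were tested on simulated data. Alternatives covered scaling, background correction (limma 3.58.1 in R 4.3.3, normexp with offset 50), detection, outlier spots, the deposited table, the threshold and 1 probe per gene. Python 3.11.15, numpy 2.4.6 and pandas 2.3.3 were used.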

Additional observations from a re-analysis of the deposited data

Results flagged for a closer look

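3 *Tpm1* probes lay on opposite sides of the control early and late, by more than the spot error, and the signs held under all 6 scalings, although for the overlapping pair some ratios came within the spot error with median or spike-in scaling or without scaling. The probe at 66880274 had a log2 ratio of 0.86 at 4 h, -1.10 at 20 h and -0.91 at 32 h. The overlapping probes at 66875782 and 66875796 had 0.58 and 0.55 at 4 h, -0.51 and -0.50 at 20 h, and -0.36 and -0.31 at 32 h. With 1 array per time, the difference between times was not tested. These were 3 of the 17 listed probes measured at both 4 h and 20 h, and 3 of the 16 measured at both 4 h and 32 h. The overlapping pair shares 46 bases and is in effect 1 reading. Of all probes measured at both times, 11.6% lay on opposite sides in this way at 4 h and 20 h, and 14.3% at 4 h and 32 h. Such a change was thus common on these arrays and not particular to *Tpm1*.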

How the results depend on the processing

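No paired analysis was possible because each condition has 1 array. The cause of each shift was not tested beyond the construction of the setting, and spots near the background (*Actg2*, *Cnn1*, *Myl9*, the dimmer *Vcl* probe) limit the ratios most. Of 651 single log2 ratios recomputed under 15 settings, 552 stayed within the spot error, 99 moved beyond it and 15, of 8 ratios none past 2-fold, changed sign. 1 setting, spike-in scaling without the probe furthest from the others, was chosen after seeing the data. Of 186 counts and medians recomputed, 152 stayed within 1.5 times the count or within the spot error. The count of 1 probe at least 2-fold higher at 4 h was 0 under all 5 other scalings, under spike-in scaling without 1 probe, with normexp, with the deposited table, with 3-fold and with 1 probe per gene, 2 without a detection filter or with the positive and significant flag, and 3 with 1.5-fold. The median at 4 h was -0.85 with the median scaling, -0.89 with the spike-in controls, with or without that probe, -0.77 without scaling and -0.20 with normexp. Without scaling, the median at 20 h was -0.24 and the count at least 2-fold lower at 20 h was 3, as with 3-fold. With 1.5-fold, the count lower at 32 h was 9. The count lower at 20 h than at 4 h was 2 with the median, the spike-in controls (with or without that probe), no scaling and 3-fold, 3 with normexp and with the 75th percentile of probes detected on all arrays, 8 with 1.5-fold and 1 with 1 probe per gene. The count higher at 20 h than at 4 h was 1 with normexp, with 3-fold and with 1 probe per gene.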
